A study of Mus musculus with 12 samples.

Results

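The urea cycle genes of the mouse were followed as a set of 9: the enzymes Cps1, Otc, Ass1, Asl, Arg1 and Arg2, the enzyme Nags that makes the activator of Cps1, and the mitochondrial carriers Slc25a15 and Slc25a13. They were chosen by name, as members of the pathway, with earlier results of these data known, and each symbol was matched to 1 gene among the 53715 genes of the count table. Of the 9 genes, 8 passed the filter on low counts (more than 10 counts in any library) and were tested among 17779 genes. Arg2 did not pass and is given by its counts.

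RNA was sequenced from 12 libraries of C57BL/6JOlaHsd mice, 4 biological replicates in each of 3 groups. Hepatoblasts, the embryonic precursors of hepatocytes and bile duct cells, were the Dlk1+ magnetic fraction of pooled E14.5 livers, lysed directly. Diff. hepatocytes were E14.5 hepatoblasts kept for 4 days on fibronectin in a medium with serum, insulin, Matrigel and the glucocorticoid dexamethasone. Mature hepatocytes came from collagenase-perfused livers of male mice aged 8 to 12 weeks and were lysed directly. Mature hepatocytes thus differ from the other groups in age and in a known single sex, and Diff. hepatocytes also in culture and in the added hormones, so these factors cannot be told apart. The labels name no genetic change in any group, and all libraries were made in the same way from poly(A) RNA and read as 75-bp single reads.

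The urea cycle turns ammonia from amino acid breakdown into urea, and in mammals the whole cycle runs in hepatocytes, mostly in those near the portal vein. Its first steps lie in mitochondria, where Cps1 makes carbamoyl phosphate from ammonia and Otc joins it to ornithine to give citrulline. Citrulline leaves through the ornithine carrier Slc25a15, and in the cytosol Ass1 joins it to aspartate, which the carrier Slc25a13 supplies from mitochondria. Asl splits the product into arginine and fumarate, and Arg1 cleaves arginine into urea and ornithine, which returns to the mitochondria. Cps1 works only with N-acetylglutamate, the product of Nags, while Arg2 is a mitochondrial arginase found mainly outside the liver.

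The genes lie apart in the genome, with positions on GRCm38. Cps1 (ENSMUSG00000025991) is on chromosome 1 from 67123026 to 67231259, Otc (ENSMUSG00000031173) on chromosome X from 10252305 to 10321024 and Ass1 (ENSMUSG00000076441) on chromosome 2 from 31470207 to 31520672. Asl (ENSMUSG00000025533) is on chromosome 5 from 130011258 to 130029247, Arg1 (ENSMUSG00000019987) on chromosome 10 from 24915221 to 24927484 and Arg2 (ENSMUSG00000021125) on chromosome 12 from 79130777 to 79156301. Nags (ENSMUSG00000048217) is on chromosome 11 from 102145513 to 102149477, Slc25a15 (ENSMUSG00000031482) on chromosome 8 from 22375551 to 22398597 and Slc25a13 (ENSMUSG00000015112) on chromosome 6 from 6041218 to 6217173. All are protein-coding, and the counts are of reads on their exons. Of the 75-base stretches of Ass1 transcripts, 32.6% also occurred in Gm5424, a gene with 24 to 47 counts in hepatoblasts, 185 to 260 in Diff. hepatocytes and 159 to 256 in mature hepatocytes, so Ass1 and Gm5424 could share reads. The other 8 genes shared no such stretch with another gene. Exons of Nags overlap the antisense gene Gm11586, which had 1 to 6 counts in any library.

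Otc and Slc25a13 are shown by the 250 bases before their start, because in culture the first fell and the second rose. RefSeq windows on GRCm38.p6 were matched for 5 of the 9 genes, namely Otc, Ass1, Nags, Slc25a13 and Slc25a15. The Otc stretch is chrX:10252055-10252304 on the plus strand and the Slc25a13 stretch is chr6:6217174-6217423 on the minus strand, both written 5′ to 3′ with matched motifs in capitals.
Otc: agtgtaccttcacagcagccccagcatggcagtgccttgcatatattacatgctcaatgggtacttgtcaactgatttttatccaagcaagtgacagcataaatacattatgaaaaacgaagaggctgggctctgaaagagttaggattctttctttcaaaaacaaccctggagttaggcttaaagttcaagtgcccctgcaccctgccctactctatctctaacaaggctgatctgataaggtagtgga
Slc25a13: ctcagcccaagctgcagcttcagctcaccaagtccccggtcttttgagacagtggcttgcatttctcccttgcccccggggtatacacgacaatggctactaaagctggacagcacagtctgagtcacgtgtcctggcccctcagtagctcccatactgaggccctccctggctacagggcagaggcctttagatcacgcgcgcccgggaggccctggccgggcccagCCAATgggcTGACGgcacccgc
Motifs were searched on both strands of 32817 windows that reach from 250 bases before to 50 bases after a start. The CCAAT box (CCAAT) occurred in 37.4% of them, the cyclic AMP response element core TGACG in 20.8%, and the GC box GGGCGG in 35.6%. Also searched were TATAAA (13.6%), TTGCNNAA of the C/EBP factors (10.8%), CAAAGTCCA of Hnf4a (0.475%), TGTTCT of the glucocorticoid receptor (19.0%), the full cyclic AMP element TGACGTCA (1.79%), which contains TGACG, and the glucocorticoid palindrome (0.0091%), which contains TGTTCT. The Slc25a13 stretch held CCAAT starting 22 bases and TGACG starting 13 bases before the start, the capitals above. Among the other matched genes, the Nags window held TGACG, and those of Ass1, Nags and Slc25a15 held GGGCGG. Ass1, which also rose in culture, had neither CCAAT nor TGACG. A link between motifs and changes in level was not tested. In the Otc window none of the 9 motifs was found. Its GC content was 44.3%, against 65.0% for Slc25a13, 74.0% for Ass1, 57.7% for Nags, 60.7% and 79.0% for the 2 starts of Slc25a15, and a median of 52.7% over all windows.

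Counts on genes were 21523329 to 25216977 per library in hepatoblasts, 19581551 to 22026087 in Diff. hepatocytes and 20043218 to 23791477 in mature hepatocytes. The labels were checked against markers. Summed levels in CPM (counts scaled by the library) of Dlk1 and Afp, which mark hepatoblasts, were 30041 to 50685 in hepatoblasts, 16053 to 20507 in Diff. hepatocytes and 35.2 to 64.5 in mature hepatocytes. Most of this sum was Afp, with means of 39337, 18609 and 42.3 CPM in the 3 groups. Dlk1 alone had means of 3523, 94.2 and 4.19 CPM. Summed levels of 8 hepatocyte markers were 36780.1 to 62046, 53871 to 62772 and 119453 to 168449 CPM. Most of this sum was Alb, with means of 37757, 40226 and 95187 CPM. Single markers went different ways in culture. Mean Ttr fell from 1955 to 1059 CPM, and mean Tat rose from 2.33 to 725. Cyp2e1 had means of 2.82, 3.24 and 6504 CPM in the 3 groups. Other cells were visible: 8 mesenchymal markers summed to 647 to 1263 CPM in hepatoblasts, 1138 to 2882 in Diff. hepatocytes and 19.6 to 37.3 in mature hepatocytes. Erythroid markers (9 of 10 listed were found) summed to 325 to 2669 CPM in hepatoblasts, with the highest value in replicate 1, 4.44 to 25.4 in Diff. hepatocytes and 131 to 180 in mature hepatocytes. In mature hepatocytes the erythroid sum was almost all Alas2, at 130 to 177 CPM. The next highest erythroid marker there was Hba-a1, with a mean of 0.835 CPM. Bile duct markers (6 genes) summed to 26.7 to 35.7, 92.7 to 232 and 37.3 to 65.9 CPM in the 3 groups, endothelial markers (8 genes) to 34.6 to 138, 4.93 to 10.8 and 111 to 209, and macrophage markers (9 genes) to 83.3 to 338, 23.2 to 162 and 137 to 268. The highest bile duct markers in Diff. hepatocytes were Krt19 and Krt7, with means of 47.3 and 41.9 CPM. Sox9 had a mean of 4.76 CPM there and 4.73 in hepatoblasts. Hepatoblast replicate 1, with the most erythroid markers, also had the lowest level in its group of 6 of the 8 tested urea cycle genes and the most macrophage markers. Diff. hepatocytes replicate 1 had the lowest level in its group of 8 of 8, together with the most mesenchymal (2882), bile duct (232) and macrophage (162) markers, so results without either library are given where they differ. In bulk RNA, fewer cells of a type and less RNA per cell cannot be told apart, and the part of other cells in the results was not tested.

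As a whole, the 9 genes took up far more of the messenger RNA in both kinds of hepatocytes than in hepatoblasts. They held 0.0763% to 0.102% of the counts of a hepatoblast library, 0.789% to 0.912% in Diff. hepatocytes and 0.813% to 0.858% in mature hepatocytes. The means were 0.0923% ± 0.0113 (SD, n = 4), 0.873% ± 0.0577 and 0.826% ± 0.0216. Both hepatocyte groups lay above the hepatoblasts without overlap (two-sided exact permutation test, p = 0.0286, the smallest that 4 against 4 libraries can give, adjusted over the 3 comparisons p = 0.0429). Between Diff. and mature hepatocytes the share did not differ beyond the spread (exact permutation p = 0.229). Without Diff. hepatocytes replicate 1 it was higher in culture by 0.0747 percentage points (exact permutation p = 0.0571). The make-up of this share did differ by gene, as Cps1 alone made 2.38% to 3.60% of it in hepatoblasts, 69.7% to 72.6% in Diff. hepatocytes and 50.1% to 57.0% in mature hepatocytes.

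**Figure D1:**
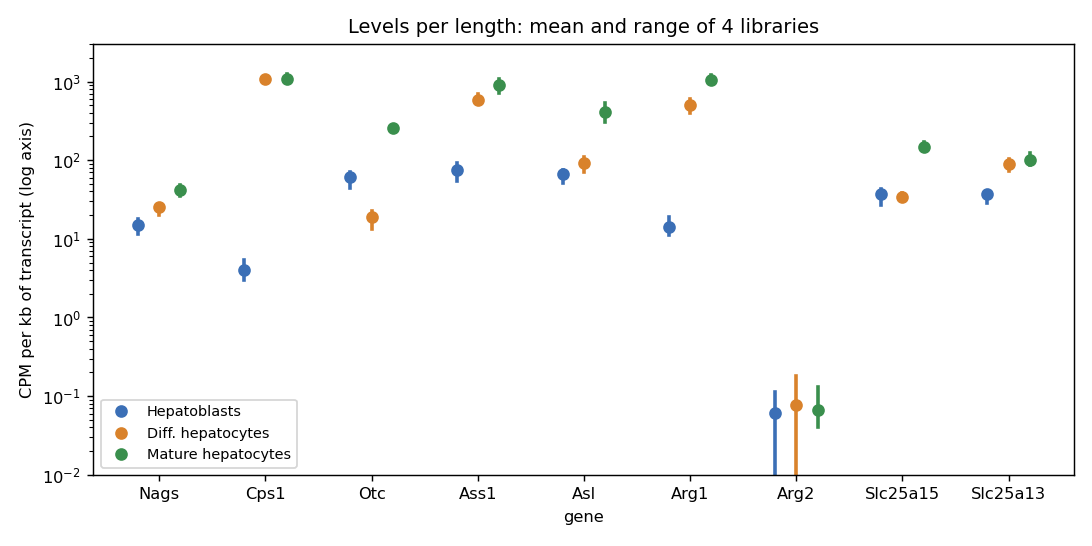
Level of each urea cycle gene in CPM per kb of its transcript (log axis), as the mean (point) and range (line) of the 4 libraries of each group. Cps1 stands at 3.96 in hepatoblasts and above 1000 in both hepatocyte groups, Otc is lowest in Diff. hepatocytes, and Arg2 stays under 0.2, with lines that reach the axis where a library had 0 counts.

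The order of the genes was read from levels per length, in CPM per kb of the longest principal transcript, and the mean of 4 libraries is given. Hepatoblasts had Ass1 (75.7), Asl (66.2) and Otc (61.0) at the top, then Slc25a15 (37.7) and Slc25a13 (37.6), Nags (14.8) and Arg1 (14.3), and Cps1 (3.96) above Arg2 (0.0614) only. The ranges of Ass1 and Asl, Asl and Otc, Slc25a15 and Slc25a13, and Nags and Arg1 overlapped, so these neighbours were not separated. Diff. hepatocytes had Cps1 (1066) first, then Ass1 (588) and Arg1 (509.9), which overlapped, and Asl (92.2) and Slc25a13 (89.4), which overlapped too. Below them came Slc25a15 (34.3), then Nags (25.1) and Otc (18.7), which overlapped, and Arg2 (0.0760). Mature hepatocytes had Cps1 (1092), Arg1 (1058) and Ass1 (901) at the top, with overlap between neighbours, followed without overlap by Asl (407), Otc (257), Slc25a15 (146), Slc25a13 (101), Nags (41.8) and Arg2 (0.0661). Cps1 thus moved from next to last in hepatoblasts to first in both hepatocyte groups, while Otc moved from the third place in hepatoblasts to next to last in Diff. hepatocytes. With the union of all annotated exons as the length, Otc was the second and Asl the fourth in hepatoblasts and Slc25a13 stood above Asl in Diff. hepatocytes, with Cps1 and Otc at the same places in that group.

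Calls were made by edgeR's quasi-likelihood test across all 17779 genes, with p-values adjusted by Benjamini-Hochberg and under 0.01, and a log2 fold change beyond 1 in either direction, and fold changes are given with their standard error (SE). From hepatoblasts to Diff. hepatocytes, 4 of the 8 tested genes rose (Cps1, Arg1, Ass1 and Slc25a13) and 1 fell (Otc), where 14.9% of all genes tested were called higher and 14% lower. For 6 of the 8 there was no overlap between libraries, against 57.5% of all genes. The median log2 fold change of the 8 was 1.01, beside -0.01 over all genes. From hepatoblasts to mature hepatocytes all 8 rose, where 20.1% of all genes were called higher and 24.7% lower, and all 8 were without overlap, against 66% of genes. Their median was 2.35, beside -0.15 over all genes. Diff. hepatocytes set against mature hepatocytes had 4 genes lower (Otc, Asl, Slc25a15 and Arg1) and 0 higher by edgeR, at background shares of 15.6% lower and 20.2% higher, and 6 of 8 did not overlap, against 61.6%. DESeq2's Wald test gave the same counts, with 0 higher, when the limits on adjusted p and fold change were applied to its results. Where it tested against the fold change limit itself, Arg1 was no longer called. In the main edgeR fit, no gene of the 8 was higher at an unadjusted p under 0.05. Scaled by library totals, edgeR had Cps1 (log2 fold change 0.50, adjusted p = 0.0041) and Slc25a13 (0.36, adjusted p = 0.020) higher, short of the fold change threshold. The median of the main fit was -0.89, beside 0.09 over all genes. Hepatoblasts are shared by the first 2 comparisons, and each group enters 2 of the 3.

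These counts rest on edgeR's TMM scaling. Scaled by library totals, the median of all genes shifted by -0.32 in Diff. hepatocytes and by -0.85 in mature hepatocytes against hepatoblasts, and by 0.53 in Diff. against mature hepatocytes. The share of called genes that were higher then moved from 51.5% to 35.4%, from 44.9% to 20.2% and from 56.4% to 75.6%. Under library totals 3 urea cycle genes rose and 1 fell in Diff. hepatocytes, 6 rose in mature hepatocytes, and 3 were lower in Diff. than in mature hepatocytes. Of all tested genes, that scaling called 11.2% higher and 20.4% lower, 11.3% and 44.5%, and 30.9% and 9.99% in the 3 comparisons. Without hepatoblast replicate 1 the counts were 4 higher and 1 lower, 8 higher, and 4 lower, as with all libraries. Without Diff. hepatocytes replicate 1 they were 4 higher and 1 lower, 8 higher, and 3 lower, the difference being Arg1 (log2 fold change -0.95).

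**Figure D2:**
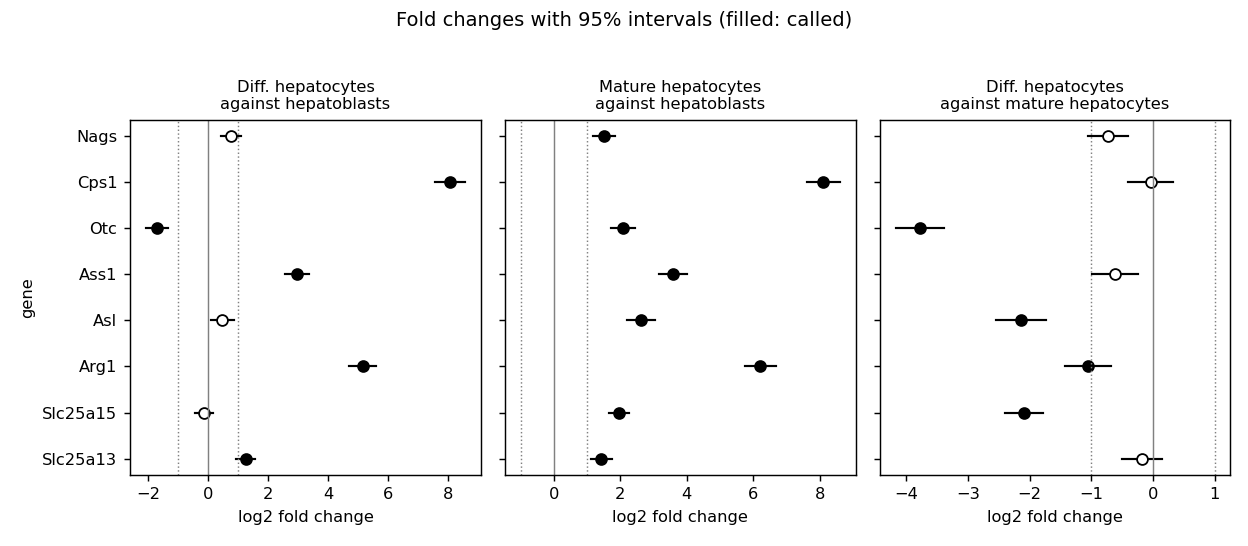
Log2 fold changes of the 8 tested genes in the 3 comparisons, with 95% intervals as lines, filled points for called genes, and dotted lines at -1 and 1. Otc is the 1 filled point left of 0 in Diff. hepatocytes against hepatoblasts, all 8 points are filled and right of 1 in mature hepatocytes against hepatoblasts, and Cps1 and Slc25a13 span 0 in the third panel.

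The entry of nitrogen was the place of the largest rise. Cps1, the carbamoyl phosphate synthetase of mitochondria and the first enzyme of the cycle, had 18.3, 16.7, 22.9 and 29.9 CPM in the 4 hepatoblast libraries, in order of replicate. In Diff. hepatocytes it had 5298, 6093, 6190.0 and 6100.3 CPM, and in mature hepatocytes 5978, 5264, 6173 and 6850.2. The hepatoblast libraries lay far below all others, while those of the hepatocyte groups were interleaved. From 22.0 ± 5.91 CPM (SD, n = 4) in hepatoblasts, Cps1 reached 5920.4 ± 417 in culture and 6066 ± 653 in the adult cells. The log2 fold change was 8.07 (SE 0.23, adjusted p = 3.10e-11) in Diff. hepatocytes and 8.11 (SE 0.23, adjusted p = 6.22e-12) in mature hepatocytes. Between the hepatocyte groups it was -0.04 with a 95% interval of -0.40 to 0.33 (adjusted p = 0.866). This interval bounds the difference under TMM scaling, and the sign was the opposite with library totals, at 0.50 (adjusted p = 0.0041).

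Nags, whose product switches Cps1 on, rose in mature hepatocytes and lay in between in culture. It had 23.3, 26.9, 33.2 and 36.7 CPM in hepatoblasts, 41.1, 55.6, 53.5 and 53.8 in Diff. hepatocytes and 83.0, 71.2, 85.4 and 99.5 in mature hepatocytes. The 3 groups did not overlap. The log2 fold change was 1.50 (SE 0.15, adjusted p = 1.01e-06) in mature hepatocytes against hepatoblasts, which passed the threshold. In Diff. hepatocytes it was 0.76 (SE 0.15, adjusted p = 6.62e-04) against hepatoblasts and -0.73 (SE 0.15, adjusted p = 7.35e-04) against mature hepatocytes, both short of the fold change threshold. Under library totals the value in mature hepatocytes was 0.65 and not called.

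Otc, the ornithine transcarbamylase that uses the carbamoyl phosphate of Cps1, was the gene that fell in culture. Its levels were 103, 140.0, 157 and 166 CPM in hepatoblasts, 31.0, 52.1, 45.7 and 44.5 in Diff. hepatocytes and 612, 594, 544 and 635 in mature hepatocytes. Each Diff. hepatocyte library lay below each hepatoblast library, and each mature library above both. The means were 142 ± 27.8, 43.3 ± 8.88 and 596 ± 38.3 CPM (SD, n = 4 each). Diff. hepatocytes differed from hepatoblasts by a log2 fold change of -1.71 (SE 0.17, adjusted p = 1.61e-06), and mature hepatocytes by 2.07 (SE 0.17, adjusted p = 1.10e-07). Set against mature hepatocytes, Diff. hepatocytes had 13.8-fold less Otc (log2 fold change -3.78, SE 0.18, adjusted p = 1.48e-09). Without hepatoblast replicate 1, the lowest of its group, the change in culture was -1.82 (adjusted p = 2.01e-07), and without Diff. hepatocytes replicate 1 it was -1.57 (adjusted p = 2.77e-06).

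**Figure D3:**
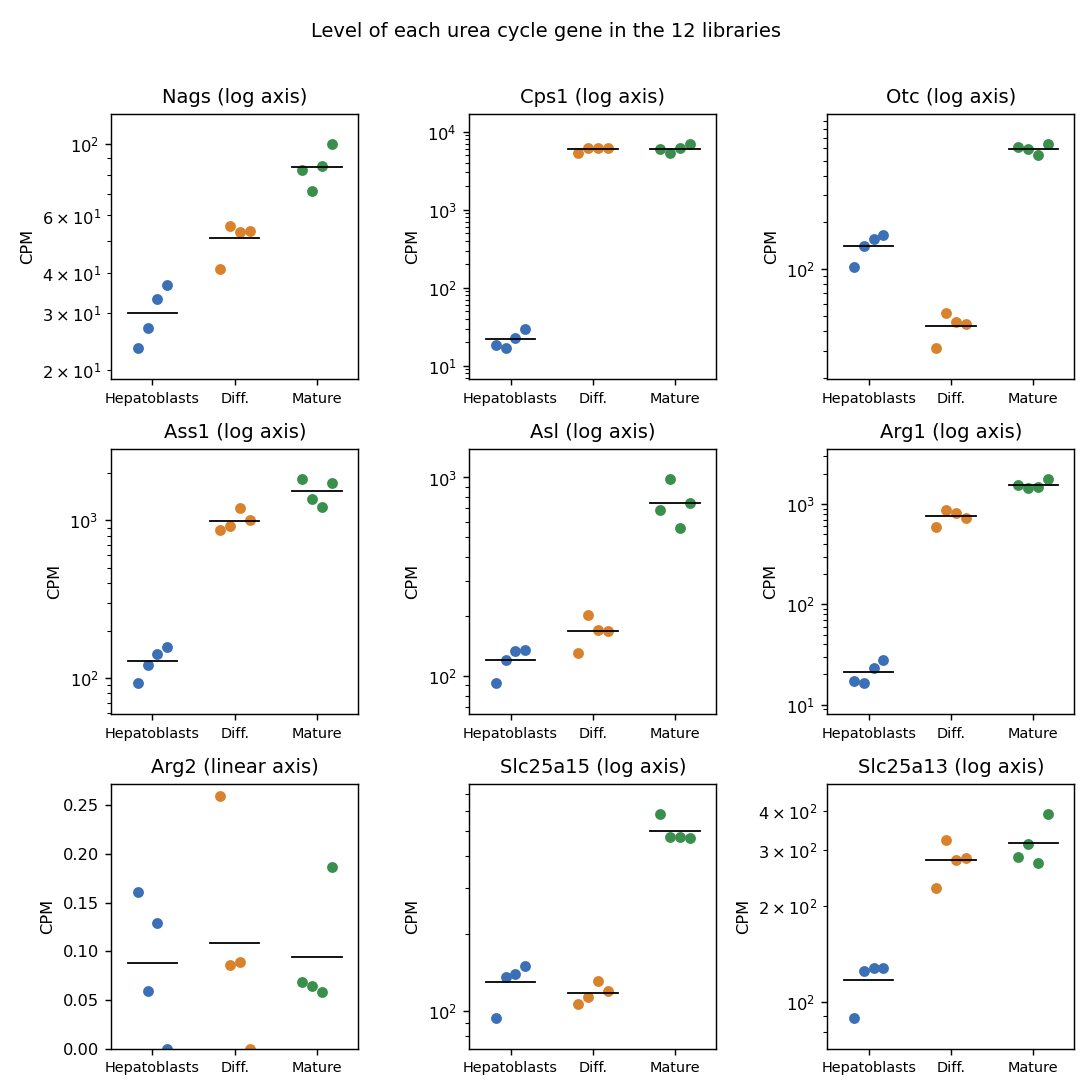
Level in CPM of each of the 9 genes in the 12 libraries, with 1 point per library, the group mean as a line, log axes for 8 genes and a linear axis for Arg2. Otc drops from 142 to 43.3 CPM in Diff. hepatocytes where Cps1, Ass1 and Arg1 climb, and Asl and Slc25a15 stay near the hepatoblast level there.

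Slc25a15, the carrier that exchanges ornithine and citrulline across the inner mitochondrial membrane, rose in mature hepatocytes and was not called in culture. Hepatoblasts had 93.6, 135, 139 and 149 CPM, Diff. hepatocytes 106, 114, 131 and 119.6 CPM and mature hepatocytes 583, 477, 475 and 472 CPM. The first 2 groups overlapped and the mature libraries lay above them. In Diff. hepatocytes against hepatoblasts the log2 fold change was -0.14, with a 95% interval of -0.43 to 0.16 (adjusted p = 0.410), and -0.25 (adjusted p = 0.0421) without hepatoblast replicate 1. Mature hepatocytes were higher by a log2 fold change of 1.96 (SE 0.14, adjusted p = 3.27e-08) than hepatoblasts, and Diff. hepatocytes lower by -2.09 (SE 0.14, adjusted p = 3.49e-08) than mature hepatocytes.

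Among the cytosolic enzymes, Ass1, the argininosuccinate synthetase, rose in both hepatocyte groups. It had 92.7, 122, 142 and 157 CPM in hepatoblasts, 874, 926, 1191 and 999.6 in Diff. hepatocytes and 1821, 1362, 1216 and 1713 in mature hepatocytes. The groups did not overlap, although the highest Diff. hepatocyte library (1191) came close to the lowest mature library (1216). The log2 fold change against hepatoblasts was 2.96 (SE 0.19, adjusted p = 3.19e-08) in Diff. hepatocytes and 3.57 (SE 0.19, adjusted p = 2.17e-09) in mature hepatocytes. Diff. hepatocytes were at -0.62 (SE 0.18, adjusted p = 0.0075) against mature hepatocytes, short of the fold change threshold. Without Diff. hepatocytes replicate 1 that difference was -0.56 (adjusted p = 0.0240). These values carry the reads that Gm5424 may share.

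Asl, the argininosuccinate lyase of the next step, was called in mature hepatocytes and not in culture. Its levels were 92.2, 121, 134 and 136 CPM in hepatoblasts, 131, 203, 171 and 168 in Diff. hepatocytes and 689, 979, 556 and 745 in mature hepatocytes. The lowest Diff. hepatocyte library lay within the hepatoblast range. The log2 fold change in culture was 0.48 (95% interval 0.09 to 0.87, adjusted p = 0.0366). It was 0.38 (adjusted p = 0.0799) without hepatoblast replicate 1 and 0.58 (adjusted p = 0.0157) without Diff. hepatocytes replicate 1. In mature hepatocytes against hepatoblasts it was 2.62 (SE 0.19, adjusted p = 3.95e-08), and in Diff. against mature hepatocytes -2.14 (SE 0.19, adjusted p = 4.11e-07).

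Arg1, the cytosolic arginase that releases urea, rose in both hepatocyte groups. It had 17.1, 16.3, 23.1 and 28.0 CPM in hepatoblasts, 592, 879.8, 814 and 726 in Diff. hepatocytes and 1539, 1440.5, 1499.5 and 1770.2 in mature hepatocytes, without overlap between groups. The log2 fold change against hepatoblasts was 5.16 (SE 0.20, adjusted p = 5.91e-10) in Diff. hepatocytes and 6.21 (SE 0.22, adjusted p = 3.57e-11) in mature hepatocytes. Diff. hepatocytes were lower than mature hepatocytes by a log2 fold change of -1.05 (SE 0.17, adjusted p = 1.26e-04), just beyond the threshold. That call was lost without Diff. hepatocytes replicate 1 (-0.95), without mature hepatocytes replicate 4 (-0.99) and with library totals (-0.52).

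The second arginase, Arg2, was at or near 0 throughout. It had 5, 2, 4 and 0 counts in the hepatoblast libraries, 6, 2, 2 and 0 counts in Diff. hepatocytes and 1, 1, 1 and 3 counts in mature hepatocytes, and a library with 0 counts allows up to 3. Arg1 had 529 to 844 counts in hepatoblasts, 13704 to 20437 in Diff. hepatocytes and 22442 to 28513 in mature hepatocytes. Arg1 was thus the arginase counted in each library of each group. Exons of Arg2 overlap those of Vti1b on the opposite strand, which had 657 to 966 counts per library.

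Slc25a13, the aspartate and glutamate carrier also called citrin, rose to about the same level in both hepatocyte groups. Hepatoblasts had 88.7, 125, 128 and 127 CPM, Diff. hepatocytes 229, 323, 280.4 and 284 CPM and mature hepatocytes 286, 314, 273 and 389.6 CPM. The hepatoblast libraries lay below all others, and the hepatocyte groups overlapped. The log2 fold change against hepatoblasts was 1.25 (SE 0.15, adjusted p = 1.07e-05) in Diff. hepatocytes and 1.43 (SE 0.15, adjusted p = 1.63e-06) in mature hepatocytes. Between the hepatocyte groups it was -0.18, with a 95% interval of -0.50 to 0.14 (adjusted p = 0.310). Under library totals Slc25a13 was not called against hepatoblasts in either group (0.94 and 0.58), and the value between hepatocyte groups had the opposite sign (0.36).

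Ratios of neighbouring steps were taken within each library from levels per kb, which removes the scaling between libraries. In hepatoblasts Otc was 13.3 to 20.1 times the level of Cps1. In Diff. hepatocytes the order had turned, with Cps1 at 48.8 to 71.4 times Otc, and in mature hepatocytes Cps1 was at 3.70 to 4.73 times Otc. The log2 ratio of Otc to Cps1 differed by -9.82 (SE 0.18) between Diff. hepatocytes and hepatoblasts, by -6.04 (SE 0.16) between mature hepatocytes and hepatoblasts, and by -3.77 (SE 0.14) between Diff. and mature hepatocytes. Each of the 3 differences was without overlap (two-sided exact permutation test, p = 0.0286, adjusted over 12 tests p = 0.0312).

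The other ratios separated the 3 groups as well, with 1 exception. Nags stood at 3.36 to 4.41 times Cps1 in hepatoblasts, 0.0212 to 0.0250 times in Diff. hepatocytes and 0.0370 to 0.0398 times in mature hepatocytes, so that the activator enzyme was the more abundant transcript in hepatoblasts only. Asl stood at 0.803 to 0.925 times Ass1 in hepatoblasts, 0.134 to 0.204 times in Diff. hepatocytes and 0.352 to 0.668 times in mature hepatocytes. Slc25a15 stood at 0.602 to 0.652 times Otc in hepatoblasts and at 0.502 to 0.644 times in mature hepatocytes, which overlapped (difference of the log2 ratio -0.12, SE 0.08, exact permutation p = 0.2). In Diff. hepatocytes it was 1.47 to 2.32 times Otc. Of the 12 tests, 11 had no overlap and the exact p of 0.0286. The carrier was thus above its enzyme in Diff. hepatocytes only. Without mature hepatocytes replicate 1, which had the most Slc25a15 of its group, the difference between mature hepatocytes and hepatoblasts was -0.18 and the libraries no longer overlapped (exact permutation p = 0.0286).

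**Figure D4:**
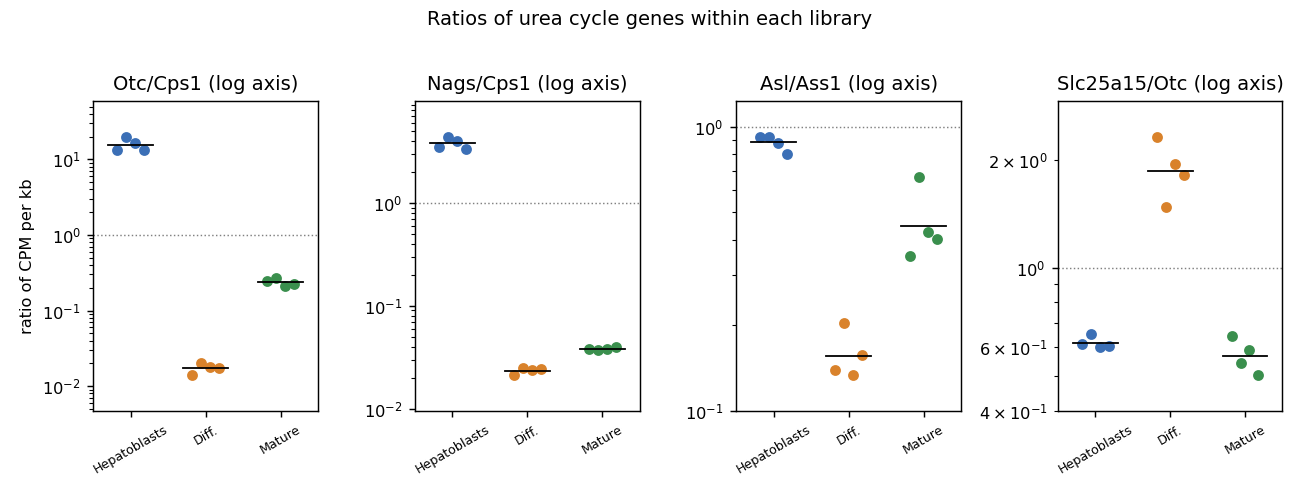
Ratios of CPM per kb within each of the 12 libraries (log axes), with 1 point per library, the geometric mean of a group as a line, and a dotted line at 1. Otc/Cps1 falls from above 13 in hepatoblasts to 0.0140 to 0.0205 in Diff. hepatocytes and 0.211 to 0.270 in mature hepatocytes, and Slc25a15/Otc is above 1 in Diff. hepatocytes only.

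Across the 12 libraries the genes fell into patterns that can be described by Pearson's r of log2 CPM, where the points share 3 groups and the same libraries. Cps1, Ass1, Arg1 and Slc25a13 moved together, with r from 0.955 (Cps1 and Slc25a13) to 0.994 (Ass1 and Arg1). Otc went with Slc25a15 (r = 0.909) and Asl (r = 0.801), and not with Cps1 (r = 0.0659). Asl and Slc25a15 had r = 0.955, and Nags lay between the patterns, at 0.916 with Ass1 and 0.811 with Slc25a15. Among 8689 other genes with a mean of at least 10 CPM, the pattern most like that of Cps1 was that of Azgp1 (r = 0.998), Fetub (0.997) and Ces2a (0.997). That of Arg1 was closest to Pemt, which makes phosphatidylcholine (r = 0.9996), the bile salt carrier Slc10a1 (0.999) and the tyrosine aminotransferase Tat (0.998). Otc was most like Agxt2, a mitochondrial aminotransferase (r = 0.996), Uroc1 of histidine breakdown (0.996) and Acy3 (0.995). Ass1 was most like Chchd10 (r = 0.999), Asl most like Sec62 (0.996), Slc25a15 most like 5830473C10Rik (0.996), Nags most like Il17rc (0.994) and Slc25a13 most like Suclg1 (0.990).

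The genes around the cycle were followed in 6 lists. Of all genes tested, 14.9% were called higher and 14% lower in Diff. hepatocytes against hepatoblasts. In mature hepatocytes against hepatoblasts the shares were 20.1% and 24.7%, and in Diff. against mature hepatocytes 20.2% and 15.6%. The median log2 fold changes over all genes were -0.01, -0.15 and 0.09. The counts of the lists stand beside these shares. Of 8 genes for ammonia and glutamine, 2 rose and 2 fell in Diff. hepatocytes, 4 rose and 1 fell in mature hepatocytes, and 7 were lower in Diff. than in mature hepatocytes. The median log2 fold changes were -0.36, 2.76 and -1.93. Gls2, the liver glutaminase that frees ammonia from glutamine in the mitochondria, had 8.12 to 13.5 CPM in hepatoblasts, 126 to 182 in Diff. hepatocytes and 438 to 679 in mature hepatocytes, without overlap. The glutamine transporter Slc38a3 rose with Gls2, from 45.3 to 89.5 CPM in hepatoblasts to 480.2 to 642 and then 1868 to 3109. Car5a, the mitochondrial carbonic anhydrase that provides bicarbonate to Cps1, was at 2.40 ± 0.919 CPM in hepatoblasts, 1.50 ± 0.435 CPM in culture, and rose to 56.3 ± 9.28 in mature hepatocytes (log2 fold change 4.55, SE 0.26, adjusted p = 3.24e-09). Slc1a2, a glutamate transporter of the hepatocytes around the central vein, was likewise high in mature hepatocytes alone, at 103 to 241 CPM, against 0.258 to 1.43 CPM in Diff. hepatocytes. Rhbg, the ammonia channel of the same cells, was highest in hepatoblasts, at 12.7 ± 2.92 CPM (SD, n = 4). It fell to 0.159 ± 0.0622 CPM in culture. The adult cells, with 1.87 ± 0.763 CPM, also lay below hepatoblasts (log2 fold change -2.75, SE 0.29, adjusted p = 1.41e-06).

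The aspartate and fumarate list holds transaminases, malate enzymes, carriers and the fumarase Fh1. Of its 9 genes, 4 rose in each hepatocyte group, and 3 were lower in Diff. than in mature hepatocytes, with median log2 fold changes of 0.89, 0.90 and -0.68. Got1, the aspartate aminotransferase of the cytosol, rose from 39.4 ± 3.65 CPM (SD, n = 4) to 187 ± 12.1 in culture and 383 ± 108 in the adult cells. The alanine aminotransferase Gpt had 5.29 to 6.93, 28.6 to 40.1 and 387 to 541 CPM in the 3 groups, without overlap. Fh1, the fumarase, had 125 to 150 CPM in Diff. hepatocytes against 253 to 327 in mature hepatocytes (adjusted p = 2.68e-06). Its log2 fold change lay at the threshold and its call was lost in 16 of 23 other settings, in which the value ran from -1.05 to -0.44. The count of 3 lower genes was 1 without mature hepatocytes replicate 2. The aspartate carrier paralogue of Slc25a13 belongs to this list and was not called in any comparison.

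Genes that use arginine and ornithine formed the longest list. Of 17 listed genes, 5 fell in Diff. hepatocytes, 4 rose and 6 fell in mature hepatocytes, and 2 were higher and 6 lower in Diff. than in mature hepatocytes, with medians of -0.62, 0.00 and -0.23. Where DESeq2 tested against the fold change limit itself, 0 of these 5 genes were called in culture. Oat, the ornithine aminotransferase of mitochondria, had 38.1 to 66.2 CPM in hepatoblasts, 41.8 to 58.2 in Diff. hepatocytes and 578 to 1407 in mature hepatocytes. Oat was thus higher in mature hepatocytes than in both other groups and not called in culture. Aldh18a1, which starts the making of ornithine and proline from glutamate, went the other way, at 42.9 to 74.8, 38.4 to 47.2 and 1.30 to 4.61 CPM. Gamt, the last enzyme of creatine synthesis, had 68.2 to 113 CPM in hepatoblasts, fell to 29.4 to 37.6 in culture and rose to 195 to 253 in the adult cells.

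Transporters of arginine, ornithine and urea did not move as 1 group. Of 11 listed genes 9 were tested, of which 4 rose and 3 fell in Diff. hepatocytes, 4 rose and 5 fell in mature hepatocytes, and 5 were higher and 1 lower in Diff. than in mature hepatocytes. Aqp9, a channel for glycerol and urea, had 9.73 to 11.6 CPM in hepatoblasts, 3.38 to 4.30 in Diff. hepatocytes and 322 to 492 in mature hepatocytes. Slc7a1, a cationic amino acid transporter that the adult liver makes little of, had 37.4 to 45.9 in Diff. hepatocytes and 0.257 to 0.817 in mature hepatocytes. Slc7a3, of the same family, had 19.7 to 35.0 in Diff. hepatocytes and 1.25 to 6.06 CPM in hepatoblasts. Slc3a1 rose to like levels of 51.4 ± 8.65 CPM in Diff. and 49.9 ± 8.95 in mature hepatocytes from 2.13 ± 0.504 CPM. The urea transporter Slc14a1 had 4.01 to 33.3 CPM in hepatoblasts, 0.444 to 1.85 in Diff. hepatocytes and 0 to 0.175 in mature hepatocytes. Erythroid markers were highest in hepatoblasts too, and which cells held Slc14a1 was not tested.

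Cad, the enzyme that makes carbamoyl phosphate in the cytosol for pyrimidines, moved against Cps1. It fell from 145 ± 21.1 CPM (SD, n = 4) in hepatoblasts to 71.0 ± 5.43 in Diff. hepatocytes (log2 fold change -1.02, SE 0.15, adjusted p = 4.52e-05) and 27.2 ± 6.01 in mature hepatocytes (-2.41, SE 0.15, adjusted p = 9.98e-09). The call in Diff. hepatocytes was lost without hepatoblast replicate 1 and without Diff. hepatocytes replicate 1. The 2 other genes of its list, Dhodh and Umps of the later steps, were not called in any comparison, with log2 fold changes of -0.97 and -0.88 in mature hepatocytes against hepatoblasts. That list's count there was 2 without mature hepatocytes replicate 3 or replicate 4, and 3 with library totals.

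**Figure D5:**
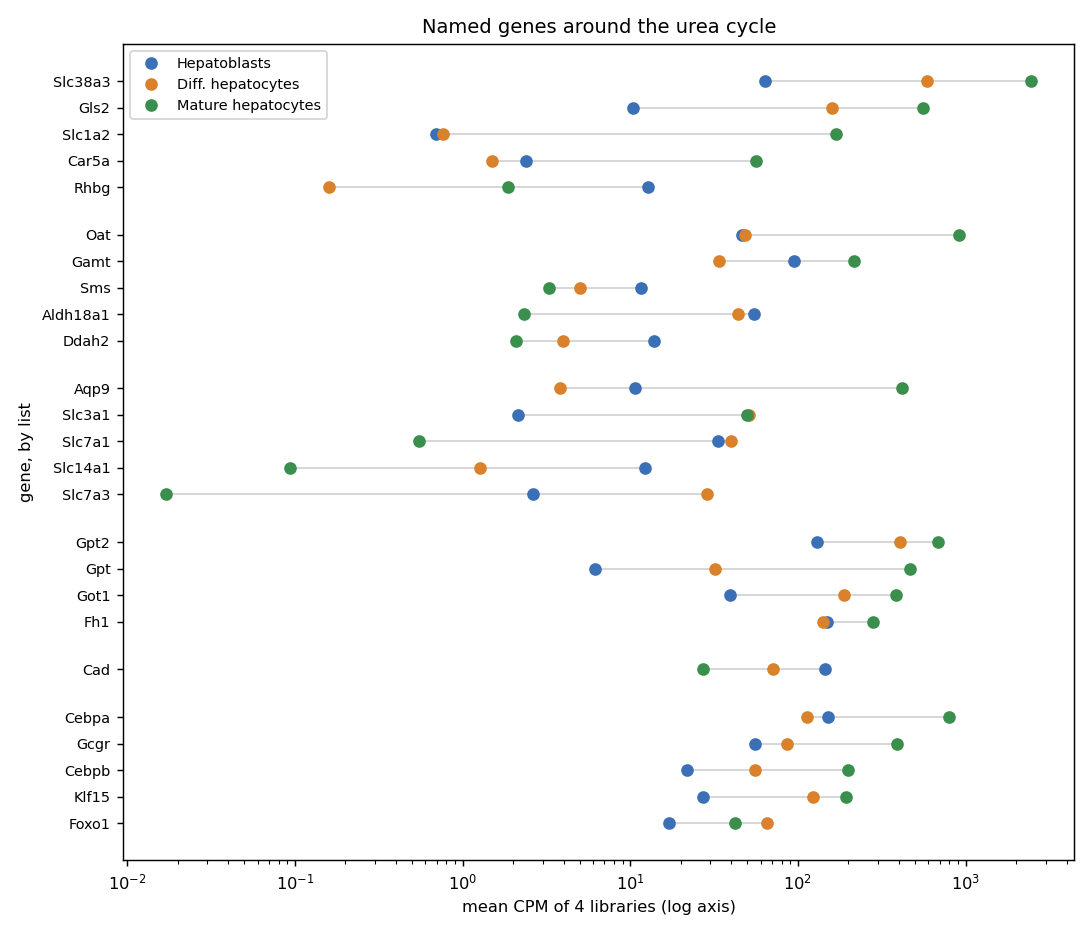
Mean level in CPM of 4 libraries (log axis) of the named genes around the urea cycle in the 3 groups, ordered by list (ammonia and glutamine, arginine and ornithine use, transport, aspartate and fumarate, pyrimidines, regulators). Oat, Aqp9, Car5a and Slc1a2 are high in mature hepatocytes alone, whereas Slc7a1 and Aldh18a1 are low there.

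Of 11 regulators of the cycle, 4 rose in Diff. hepatocytes, 9 rose and 1 fell in mature hepatocytes, and 1 was higher and 4 lower in Diff. than in mature hepatocytes, with medians of 0.65, 1.41 and -0.81. With DESeq2 and the fold change threshold in the test, 2, 5 and 3 regulators were called in these comparisons. Cebpa, a transcription factor that acts on several urea cycle genes, had 109 to 189 CPM in hepatoblasts, 103 to 118 in Diff. hepatocytes and 655 to 1048 in mature hepatocytes. Its levels in the first 2 groups overlapped. Gcgr, the glucagon receptor, had 40.0 to 67.3, 63.1 to 98.4 and 351 to 436 CPM, and was not called in Diff. hepatocytes against hepatoblasts (log2 fold change 0.65, SE 0.17, adjusted p = 0.0044). Klf15, a glucocorticoid-induced factor of amino acid breakdown, rose in both, from 27.2 ± 6.35 CPM (SD, n = 4) to 123 ± 13.0 in Diff. and 192 ± 40.5 in mature hepatocytes. Cebpb rose in both as well, from 21.8 ± 2.72 CPM to 55.3 ± 1.39 and 200 ± 25.9 CPM, without overlap. Foxo1 was highest in Diff. hepatocytes, at 54.6 to 73.7 CPM, against 13.3 to 19.1 CPM in hepatoblasts and 32.7 to 54.1 in mature hepatocytes. Its difference between the hepatocyte groups was short of the fold change threshold and not called (log2 fold change 0.65, SE 0.16).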

How the data were processed

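The 12 RNA libraries comprised 4 biological replicates of each group, hepatoblasts, Diff. hepatocytes and mature hepatocytes. The libraries were made by a workflow described as strand-specific. The authors checked reads with FastQC 0.11.2, mapped them to GRCm38 with STAR 2.5.2b and counted them on Ensembl genes, and deposited the raw count of each gene, with no normalization. The versions come from the submitters' processing notes. The strand setting of the counting and any removal of duplicate reads are not given in the sources used here. Each of the 12 columns was matched to a library by its label, and 0 columns were left unused.

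Symbols, positions and transcript lengths were taken from GENCODE M21, where 53620 of the 53715 identifiers were found. The analysis used edgeR 4.0.16 under R 4.3.3. A gene was kept where any 1 library exceeded 10 counts, TMM set the library sizes, and the quasi-likelihood model held the group alone. CPM are counts per TMM-scaled library size, multiplied up to a common total, and log2 CPM used a prior count of 2. Single values and the 4 within-library ratios were compared by two-sided exact permutation over the 70 assignments of 8 libraries, with Benjamini-Hochberg adjustment over 12 ratio tests. A ratio of Arg2 to Arg1 had also been planned and was left out because some libraries had 0 Arg2 counts. The quasi-likelihood p-values rest on a spread between libraries pooled over the groups in 1 fit. Permutation p-values rest on the 8 libraries compared. Neither takes account of a possible pairing of libraries by replicate number.

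All 9 genes are named. Of the 6 lists, up to 3 called genes per list and comparison with the largest fold change and a mean of at least 10 CPM were named, with others where a result turned on them, and likeness was Pearson's r of log2 CPM over the 12 libraries among genes with a mean of at least 10 CPM. Of the ammonia and glutamine list, 1 gene is not reported here, and the counts of that list leave it out. The genes, lists and tests were chosen with earlier results of these data known. Levels per kb used the longest principal transcript, a choice made after the data were seen. Other choices tried were DESeq2 1.42.0 with the fold change threshold after or in the test, its size factors, library totals (also after removal of the 50 most abundant genes), other filters, fits to 8 libraries alone, a block for the replicate number, another threshold, and fits without each library. On simulated data for Diff. hepatocytes against hepatoblasts, 198 of 200 genes changed 4-fold were called among 16615 genes, with 0 false calls. The changed genes had a mean of at least 50 counts, as many went up as down, and the spread was that of hepatoblasts. Far more genes differ in the real data, so the run does not give their rate of false calls. Counts between replicates differed by more than sampling noise, so no library was counted as a duplicate.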

Additional observations from a re-analysis of the deposited data

Results flagged for a closer look

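In 6 of 42 groups of 4 libraries, 1 library stood apart from the other 3 by Dixon's test at its 95% critical value, where chance gives about 2.1. Diff. hepatocytes replicate 1 was low for Cps1, at 5298 CPM against 6093 to 6190.0 in the others, and for Nags, at 41.1 CPM against 53.5 to 55.6. Hepatoblasts replicate 1 was low for Slc25a13, at 88.7 CPM against 125 to 128. Mature hepatocytes replicate 1 was high for Slc25a15, at 583 CPM against 472 to 477. Mature hepatocytes replicate 4 was high for the share of counts on the 9 genes, at 0.858% against 0.813% to 0.816%, and for Arg2, at 0.186 CPM, which is 3 counts against 1.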

How the results depend on the processing

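No setting changed the counts of urea cycle genes called by more than 1.5 times. Cps1 in Diff. against mature hepatocytes changed sign, to 0.50 with library totals, 0.53 with totals without the 50 most abundant genes, 0.073 with at least 10 counts in every library, 0.015 in the fit that left out Diff. hepatocytes replicate 1 and 0.024 in the one that left out mature hepatocytes replicate 4, and leaving out each library in turn gave -0.104 to 0.024. Slc25a13 in the same comparison changed sign to 0.36 with library totals and 0.39 with totals without the 50 most abundant genes. The cause was not tested. Among calls, Arg1 in Diff. against mature hepatocytes was lost in 6 settings and Nags in mature hepatocytes in 3. Slc25a13 against hepatoblasts was lost in the same 3 settings as Nags. Totals without the 50 most abundant genes lost that Slc25a13 call in mature hepatocytes only. In each case the value neared or missed the fold change threshold or, with DESeq2, the threshold was in the test. Over all genes, the calls in Diff. hepatocytes, in mature hepatocytes and between them were 5145, 7971 and 6362, and 2504, 4923 and 3528 with DESeq2 and the threshold in the test, 2634, 4379 and 3107 with at least 10 counts in every library, and 10615, 12870 and 11580 where an adjusted p under 0.05 alone made the call. Leaving out each library in turn, the log2 ratio of Asl to Ass1 in mature hepatocytes against hepatoblasts ranged from -1.17 to -0.86. It missed the adjusted threshold without any 1 of the 4 hepatoblast libraries (exact permutation, adjusted p = 0.0623). In those 4 fits the difference was -0.95 to -1.02 and the groups still did not overlap, with ratios from 0.803 in hepatoblasts and up to 0.668 in mature hepatocytes. The log2 ratio of Slc25a15 to Otc ranged from -0.184 to -0.064. No source used here says whether a replicate number marks a shared isolation, so the block was tried as an alternative only. Same-numbered Diff. hepatocyte and hepatoblast libraries deviated together in 3 of 4 pairs (correlations 0.184 to 0.324, each best with its own number, and -0.0589 for replicate 2). In the fit with the replicate number as a block, the urea cycle calls were 4 higher and 1 lower in Diff. hepatocytes, 8 higher in mature hepatocytes and 4 lower between them, with no call changed. Called genes of the aspartate and fumarate list between the hepatocyte groups numbered 3, and 1 with at least 10 counts in every library or with DESeq2 and the threshold in the test, which also left 0 of 5 for arginine and ornithine use in Diff. hepatocytes. Depth limits Arg2, at 0 to 6 counts.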
